A study of Rattus norvegicus with 72 samples.

Results

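The genes described are 38 genes of cell division, chosen by symbol as 10 genes of DNA replication and 28 genes of mitosis, and all 38 are among the 30042 gene symbols of the count table. The replication genes were Mcm2, Mcm3, Mcm4, Mcm5, Mcm6 and Mcm7, the subunits of the ring-shaped helicase that unwinds DNA at origins, together with Pcna (the sliding clamp that holds polymerases on DNA), Rrm2 and Tyms (which supply deoxynucleotides) and Ccne2 (a cyclin that drives entry into S phase). The mitosis genes were Ccna2, Ccnb1, Ccnb2 and Cdk1 (the cyclins and the kinase of mitotic entry), the kinases Aurka, Aurkb, Plk1, Bub1, Bub1b and Melk, Birc5 and Cdca8 of the chromosomal passenger complex, the kinetochore genes Cenpe, Cenpf and Ndc80, Cdc20 and Ube2c of the anaphase-promoting pathway, the spindle genes Kif11, Kif4a, Kif20a, Kif23, Prc1, Tpx2 and Nusap1, Anln and Ect2 of cytokinesis, and Mki67 and Top2a, which act on chromosomes. A dividing cell copies its DNA in S phase and parts the copies in M phase, and the 2 sets of genes serve these steps in turn. Replication genes are known to be transcribed under E2F factors at the border of G1 and S, and mitosis genes later, in G2 and M, through promoter elements read by the DREAM and MuvB complexes with B-MYB and FOXM1. In the adult lung few cells divide, mainly type II pneumocytes, macrophages and endothelial and stromal cells, and inhaled particles are one of the injuries after which division can rise.

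Lungs came from 72 male adult rats of the Sprague-Dawley strain, 1 RNA library each, killed after 6 hours per day for 4 days of whole-body inhalation of an aerosol of diesel exhaust particles (DEP) or filtered air. At 1, 7 and 27 days after exposure there were 6 rats after 1000 ug/m3 and 6 air rats whose sample titles carry the same letter H (air H), and 6 rats after 200 ug/m3 and 6 air rats with the letter L (air L), which makes 12 groups. What H and L mean is not stated in the labels. The numbers of the H animals form 2 series, with 4 animals of each H group in the lower series and 2 in the higher, and the labels do not explain them. The comparisons ask which genes differed after each concentration and over the days that followed, and all groups share strain, sex and handling as far as the labels give them. RNA came from a piece of lung, so a level is a mean over all its cells, and fewer dividing cells and less RNA of these genes per cell cannot be told apart in it.

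Total counts ran from 1042336 to 2397971 per library at day 1, from 3471134 to 6279763 at day 7 and from 3761631 to 6520180 at day 27. Below these ranges lay 3 shallow libraries after 1000 ug/m3, animal 037 of day 7 (105453 counts) and animals 024 and 045 of day 27 (439393 and 149004 counts). Day 1 and depth cannot be told apart, whereas days 7 and 27 were of like depth. No 2 libraries of a group held the same values (180 pairs compared). At day 7 the H animals stood apart from the L animals in many genes, in air and exposed lungs alike. Marker genes of lung were high, with Sftpc of type II pneumocytes at a mean of 5750 CPM (counts scaled to a total of 1000000), Ager of type I pneumocytes at 1630 and Scgb1a1 of club cells at 2150. The alveolar macrophage markers were unlike in level. Mrc1 had a mean of 217 CPM, Siglec5 19.3, Pparg 15.2 and Fabp4 5.67, while Marco and Ear1 were near 0 (0.0175 and 0.0216 CPM).

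Stretches of promoter are printed because the replication and mitosis genes are known to differ in these elements, and because the results set the one set of genes beside the other. Each is the 150 bases before the RefSeq start of the gene, in the GRCr8 assembly, read 5′ to 3′ on the strand of the gene. Capitals mark the E2F spellings TTTGGCGC, TTTCCCGC, TTTCGCGC and TTTGCCGC, the CHR (cell cycle genes homology region) spellings TTTGAA and TTCGAA, and the CCAAT box, each searched on both strands, so that an E2F or CHR spelling or a CCAAT box can also stand as its reverse complement. Where 2 matches overlap they form a single run of capitals.
Mcm2: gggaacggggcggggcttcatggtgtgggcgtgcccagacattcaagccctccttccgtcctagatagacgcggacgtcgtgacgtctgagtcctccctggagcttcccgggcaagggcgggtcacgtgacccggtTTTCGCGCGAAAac
Mcm5: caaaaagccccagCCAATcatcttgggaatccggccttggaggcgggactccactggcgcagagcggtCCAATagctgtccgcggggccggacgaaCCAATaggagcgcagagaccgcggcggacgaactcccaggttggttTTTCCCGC
Mcm6: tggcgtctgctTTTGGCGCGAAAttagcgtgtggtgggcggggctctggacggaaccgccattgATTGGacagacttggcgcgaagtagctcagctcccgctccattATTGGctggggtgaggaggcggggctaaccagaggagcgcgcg
Mki67: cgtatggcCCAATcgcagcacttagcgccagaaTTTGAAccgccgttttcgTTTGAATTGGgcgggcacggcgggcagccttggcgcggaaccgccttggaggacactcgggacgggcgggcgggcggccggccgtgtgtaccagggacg
Top2a: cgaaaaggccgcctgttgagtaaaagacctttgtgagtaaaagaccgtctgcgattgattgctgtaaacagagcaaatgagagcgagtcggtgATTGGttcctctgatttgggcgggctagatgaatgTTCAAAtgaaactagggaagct
Cdk1: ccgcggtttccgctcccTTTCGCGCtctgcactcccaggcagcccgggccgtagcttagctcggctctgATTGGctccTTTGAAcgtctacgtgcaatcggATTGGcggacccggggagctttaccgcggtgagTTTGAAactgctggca
These stretches lie at chr4:122918095-122918244 (Mcm2, minus strand), chr19:13488663-13488812 (Mcm5, plus), chr13:42404353-42404502 (Mcm6, minus), chr1:199952594-199952743 (Mki67, minus), chr10:84473094-84473243 (Top2a, minus) and chr20:19265143-19265292 (Cdk1, plus). Of the 38 genes, 31 had an entry in the RefSeq promoter table, 7 replication and 24 mitosis genes. In windows of 250 bases before to 50 after the start, an E2F spelling stood in 6 of 7 replication genes (Mcm2, Mcm3, Mcm5, Mcm6, Mcm7 and Tyms) and in 1 of 24 mitosis genes (Cdk1), against 2.14% of all 33469 promoters. A CHR spelling stood in 17 of 24 mitosis genes and 2 of 7 replication genes, against 19.7% of all promoters. The CCAAT box was present in 18 of 24 mitosis genes and 5 of 7 replication genes, against 37.5% of all promoters. A match is a run of letters, and binding was not measured.

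No replication or mitosis gene passed the test between exposed and air lungs at any day or concentration. In edgeR's quasi-likelihood test, 0 members passed an adjusted p of 0.05 in each of the 6 comparisons, of 26 tested at day 1, 37 at day 7 and 36 at day 27. In the same comparisons 0% of all genes passed, except 0.00698% at day 7 after 200 ug/m3. At an unadjusted p under 0.05 there were 2 and 5 members at day 1 (1000 and 200 ug/m3), 0 and 5 at day 7, and 0 and 5 at day 27. Over all genes the same counts were 419 and 741 of 12304 at day 1, and 629 and 818 of 14331 at day 7. At day 27 they were 1034 and 1430 of 14761. DESeq2 and limma-voom called 0 members in each comparison. Of the 26 members tested in all 6 comparisons, 0 had the same sign in all of them.

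Mki67, which codes for the protein Ki-67 that coats mitotic chromosomes and marks cycling cells, shows the levels behind this. At day 1 its lowest, median and highest levels were 29.8, 66 and 82.3 CPM after 1000 ug/m3 and 47.9, 58.4 and 93.9 in air H. After 200 ug/m3 they were 60.4, 62.3 and 82, against 28.9, 38.5 and 82.8 in air L. The groups overlapped in both pairs. At day 7 the levels were 49.7, 57.1 and 112 after 1000 ug/m3, where the highest is the shallow library 037, and 45.1, 55.9 and 63.7 in air H. They were 48.7, 57.5 and 72.5 after 200 ug/m3 and 51.8, 59.3 and 66.7 in air L. All 4 groups of that day overlapped. At day 27 Mki67 had 29, 36.8 and 50.1 CPM after 1000 ug/m3 against 36.1, 49.6 and 58.9 in air H, and 36.8, 40.9 and 46.6 after 200 ug/m3 against 36.5, 49.8 and 62.6 in air L. After 1000 ug/m3 the 2 lowest values of day 27 are those of the shallow libraries 024 and 045, and the median of the other 4 animals was 42 CPM. Both exposed medians of day 27 stood below their air medians, with and without these libraries, and the groups overlapped. Its log2 fold changes of exposed over air were -0.09 (95% interval -0.60 to 0.43) and 0.43 (-0.09 to 0.95) at day 1 for 1000 and 200 ug/m3. They were 0.06 (-0.14 to 0.25) and -0.01 (-0.20 to 0.18) at day 7, and -0.22 (-0.46 to 0.02) and -0.24 (-0.47 to -0.02) at day 27, where the last interval leaves out 0 but the adjusted p was 0.496 in edgeR. Intervals were widest at day 1. Libraries of that day were shallow, and the air animals also lay further apart than at day 7. Air L ran from 28.9 to 82.8 CPM at day 1 and from 51.8 to 66.7 at day 7, and air H from 47.9 to 93.9 and from 45.1 to 63.7. After 200 ug/m3 the ranges of the 2 days were alike in width (60.4 to 82 and 48.7 to 72.5). The part of depth and of spread between animals was not tested.

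At day 1 other members lay as follows, as mean ± SD of 6 animals. Top2a had 28.9 ± 7.72 CPM in lungs exposed to 1000 ug/m3 against 30.6 ± 11.3 in their air H controls, and 32.1 ± 5.09 CPM in those exposed to 200 ug/m3 against 22.1 ± 10.7 in air L. Pcna had 45.9 ± 4.15 CPM in lungs exposed to 1000 ug/m3 against 42.1 ± 14 in their air H controls, and 43.8 ± 11.6 CPM in those exposed to 200 ug/m3 against 46.2 ± 4.71 in air L. Mcm2 had 21.2 ± 4.27 CPM in lungs exposed to 1000 ug/m3 against 21.9 ± 4.83 in their air H controls, and 28.1 ± 5.19 CPM in those exposed to 200 ug/m3 against 24 ± 8.24 in air L. None of these 3 genes passed the test between exposed and air lungs. Mcm6 had 15.9 ± 3.27 CPM in lungs exposed to 1000 ug/m3 against 16.4 ± 3.47 in their air H controls, and 16.7 ± 2.1 CPM in those exposed to 200 ug/m3 against 15.5 ± 5.81 in air L. Cyclin B1 (Ccnb1), the partner of Cdk1, had 3.95 ± 2.15 CPM in lungs exposed to 1000 ug/m3 against 3.62 ± 1.72 in their air H controls, and 2.53 ± 0.892 CPM in those exposed to 200 ug/m3 against 2.54 ± 0.987 in air L at day 1. Its exposed and air means of that day were closer than 1 SD. Its levels at day 7 were 2.78 to 8.64 CPM (lowest to highest) in lungs exposed to 1000 ug/m3 against 4.11 ± 1.38 in their air H controls, and 2.81 ± 1.06 CPM in those exposed to 200 ug/m3 against 3.26 ± 1.16 in air L. The 8.64 CPM is that of the shallow library 037, and the other 5 animals after 1000 ug/m3 had 4.51 ± 1.56 CPM. At day 27 Ccnb1 had 1.64 ± 1.37 CPM in lungs exposed to 1000 ug/m3 against 2.66 ± 1.01 in their air H controls, and 2.48 ± 0.509 CPM in those exposed to 200 ug/m3 against 3.23 ± 0.967 in air L. The mean after 1000 ug/m3 includes counts of 0 in the shallow libraries 024 and 045, which allow up to 6.69 and 18.6 CPM, and the other 4 animals had 2.45 ± 0.659 CPM. Rrm2 had 4.46 ± 2.4 CPM in lungs exposed to 1000 ug/m3 against 2.73 ± 1.71 in their air H controls, and 4.56 ± 2.13 CPM in those exposed to 200 ug/m3 against 3.76 ± 2.18 in air L at day 1. At day 7 it had 2 ± 1.19 CPM in lungs exposed to 1000 ug/m3 against 2.11 ± 0.705 in their air H controls, and 3.41 ± 0.893 CPM in those exposed to 200 ug/m3 against 3.9 ± 1.64 in air L. The count of 0 in the shallow library 037 of day 7 allows up to 25.9 CPM, and the other 5 animals after 1000 ug/m3 had 2.4 ± 0.759 CPM, above and no longer below the air H mean. Both means of the L set at day 7 were above both of the H set. At day 27 Rrm2 had 2.94 ± 1.66 CPM in lungs exposed to 1000 ug/m3 against 3.4 ± 0.845 in their air H controls, and 2.1 ± 0.658 CPM in those exposed to 200 ug/m3 against 2.8 ± 1.35 in air L. The mean after 1000 ug/m3 includes a count of 0 in the shallow library 045, and the 4 animals other than 024 and 045 had 3.29 ± 0.88 CPM, closer to air H than 1 SD. At day 1 Ccnb1 and Rrm2 had too few counts to be tested, and at days 7 and 27 neither passed between exposed and air lungs.

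The members with the smallest p are given here for each comparison and class, and some recur. Kif23 had the smallest p after 200 ug/m3 at both day 1 and day 7, with positive values, while its value at day 27 was -0.34 (SE 0.14). At day 1 after 1000 ug/m3 these were the spindle motor Kif11 (log2 fold change -0.54, SE 0.24, adjusted p = 1 in edgeR) and the kinetochore gene Ndc80 (-0.76, SE 0.35, adjusted p = 1), with Tyms at 0.26 (SE 0.21) and Mcm4 at 0.16 (SE 0.18) among replication genes. At day 1 after 200 ug/m3 they were Kif23, a motor of the central spindle (0.58, SE 0.18, adjusted p = 0.628), and the microtubule binder Nusap1 (0.76, SE 0.27, adjusted p = 0.723), with Mcm2 at 0.23 (SE 0.18) and Tyms at 0.24 (SE 0.20). In that comparison 16 of 18 mitosis genes had positive values (median 0.40) and 5 of 8 replication genes (median 0.07), where the median of all 12304 genes was 0.00. The air L animals of that day were unlike each other. Their summed mitosis levels were 225, 233, 268 and 225 CPM in 049, 050, 051 and 052, and 377 and 374 in 053 and 054. Those after 200 ug/m3 ran from 314 to 423 CPM. Ndc80 had values of opposite sign at the 2 concentrations, -0.76 and 0.67 (SE 0.33). At day 7 the smallest p belonged to the kinase gene Melk (-0.59, SE 0.33), Top2a (-0.18, SE 0.11), Mcm2 (-0.18, SE 0.12) and Tyms (0.11, SE 0.12) after 1000 ug/m3. After 200 ug/m3 they were Kif23 (0.24, SE 0.09), Top2a (-0.24, SE 0.10), Mcm5 (-0.32, SE 0.15) and Mcm3 (-0.15, SE 0.12). At day 27 after 1000 ug/m3, Mki67 had -0.22 (SE 0.12), the kinetochore motor Cenpe -0.28 (SE 0.16), Pcna 0.10 (SE 0.11) and Mcm6 -0.08 (SE 0.12). At day 27 after 200 ug/m3, cyclin A2 (Ccna2) had -0.56, SE 0.21, adjusted p = 0.402 in edgeR, the spindle midzone gene Prc1 -0.34 (SE 0.13), Mcm7 0.11 (SE 0.07) and Tyms -0.17 (SE 0.12). There, 23 of 26 mitosis genes had negative values (median -0.25) and 8 of 10 replication genes (median -0.10), against a median of 0.00 over 14761 genes.

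The difference between the concentrations and the change of an exposure effect between days were tested directly, and 0 members passed in any of these 9 comparisons, 318 tests in all. The unadjusted p was under 0.05 in 26 of these tests, all of mitosis genes, and DESeq2 called 0. By comparison, 0 to 10 members lay under it. Over all genes the count under it ran from 415 of 14502 to 1961 of 14761. Of all genes, 0.00813% passed in the concentration difference of day 1 and 0% in the other 8. The concentration difference (1000 minus 200 ug/m3, each over its own air) had mitosis medians of -0.37 at day 1, 0.05 at day 7 and 0.18 at day 27. Between day 27 and day 1 the effect of 200 ug/m3 changed with a negative sign in 24 of 27 mitosis genes (median -0.61) and 8 of 10 replication genes (median -0.22), against a median of 0.01 over all genes. This change draws on the air L animals of day 1, whose unlike mitosis levels are given above. For 10 of the 27 mitosis genes the unadjusted p was under 0.05, beside 1236 of all 14558 genes. The smallest adjusted p of a member in edgeR was 0.219. Averaged over the 6 pairs of groups in a fit of all 72 libraries, a comparison added after the data were seen, 0 of 38 members passed in edgeR for exposure, where 0.0134% of all genes passed. The unadjusted p was under 0.05 for 0 members, beside 757 of all 14956 genes, and DESeq2 called 0 members. The values lay between -0.27 for Melk (95% interval -0.57 to 0.04) and 0.14 for Ccne2 (-0.11 to 0.38). Mki67 had -0.02 (-0.15 to 0.12), Top2a -0.04 (-0.18 to 0.10), Pcna 0.01 (-0.09 to 0.10) and Mcm2 -0.01 (-0.13 to 0.10). The median was 0.01 for replication and -0.02 for mitosis genes, against -0.01 for all genes. Intervals were wide for genes with few counts, such as Ube2c, with 398 counts in all libraries together (-0.43 to 0.42).

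**Figure D1:**
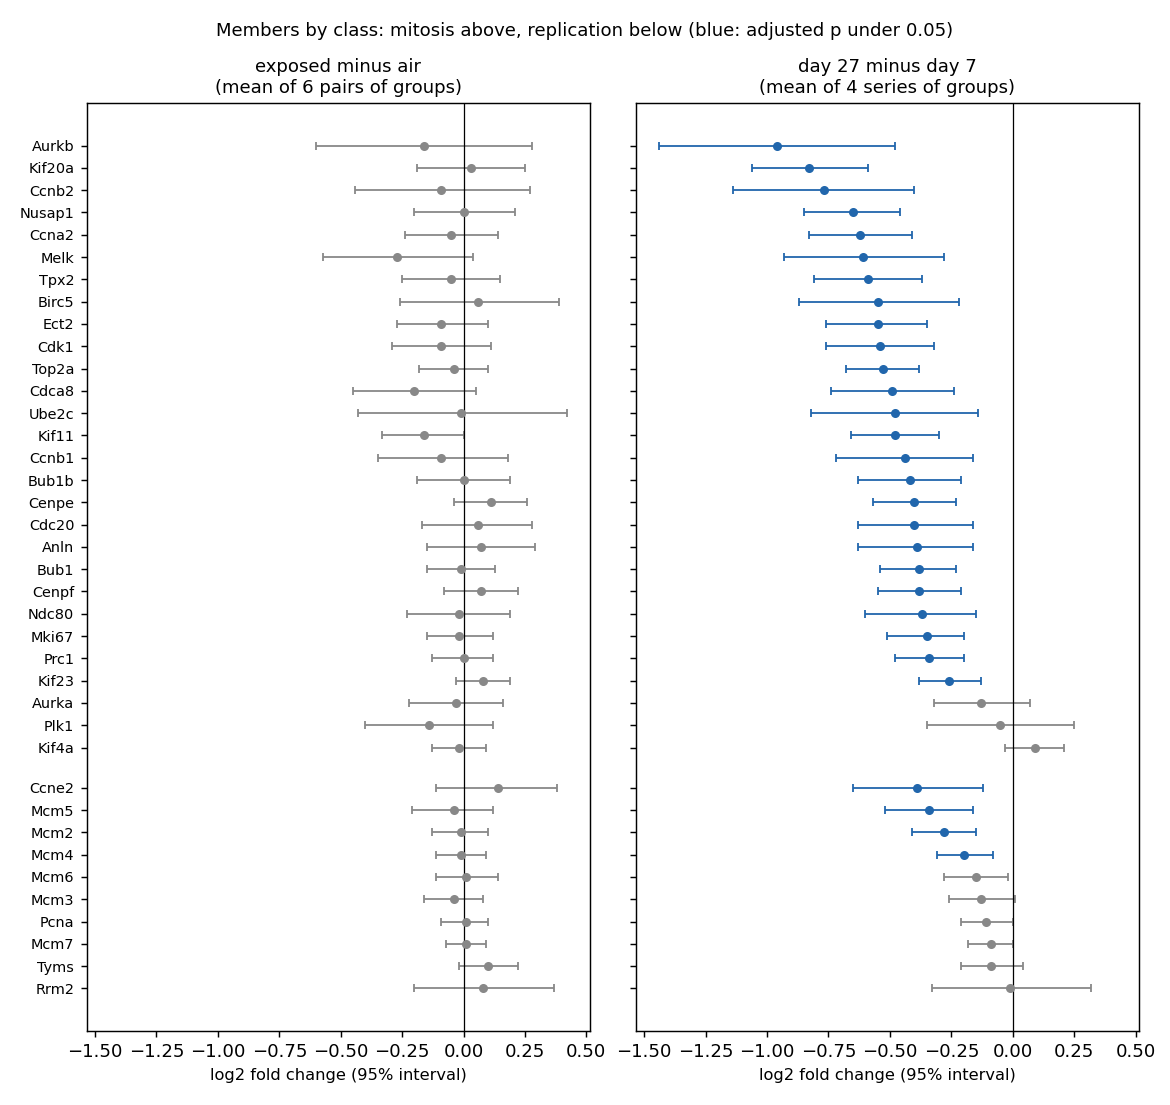
Log2 fold change of each of the 38 genes with its 95% interval, averaged over the 6 pairs of exposed and air groups (left) and over the 4 series of day 27 and day 7 groups (right), mitosis genes above and replication genes below, blue where the adjusted p was under 0.05. No interval on the left belongs to a gene that passed the test, and on the right 25 of 28 mitosis genes and 4 of 10 replication genes stand to the left of 0 in blue.

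Between days 7 and 27, 25 of 28 mitosis genes fell, with a median log2 fold change of -0.46 over all 28, and 4 of 10 replication genes fell, with a median of -0.14 over all 10. The difference between the 2 classes was not tested. These values average the 4 series (1000 ug/m3, air H, 200 ug/m3 and air L) in a fit of all 72 libraries, a comparison added after the data were seen. Among all 14956 genes 9.72% fell and 10.5% rose, with a median of 0.00. Without the 3 shallow libraries 28 members fell in place of 29. With every library thinned to 1000000 counts, which leaves out the shallow ones, 11 of the 27 members still tested fell and 0 rose, with medians of -0.33 for mitosis and -0.17 for replication genes. The share of all genes called was not computed for the thinned fits, here or below. Whether members lost more calls than other genes is therefore not known. The largest falls were those of Aurkb, the kinase of the passenger complex (-0.96, SE 0.24, adjusted p = 0.00308 in edgeR), Kif20a, a motor of the central spindle (-0.83, SE 0.12, adjusted p = 2.23e-07), cyclin B2 (Ccnb2, -0.77, SE 0.19, adjusted p = 0.00163), Nusap1 (-0.65, SE 0.10, adjusted p = 4.73e-07) and Ccna2 (-0.62, SE 0.11, adjusted p = 9.61e-06).

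Each role within mitosis took part. All 4 genes of mitotic entry fell (median -0.58), with Cdk1 at -0.54 (SE 0.11) and Ccnb1 at -0.44 (SE 0.14). So did both passenger complex genes, Birc5 (-0.55, SE 0.17) and Cdca8 (-0.49, SE 0.13). The 3 kinetochore genes fell (median -0.38), as did both genes of the anaphase-promoting pathway (median -0.44). Of 7 spindle genes 6 fell, among them Tpx2, the activator of Aurora A (-0.59, SE 0.11), and Kif11 (-0.48, SE 0.09). Both cytokinesis genes fell, Ect2 (-0.55, SE 0.10) and Anln (-0.39, SE 0.12), and 4 of 6 kinases, among them the spindle checkpoint gene Bub1 (-0.38, SE 0.08).

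Top2a, the topoisomerase that untangles sister chromosomes, shows the fall by animal. After 1000 ug/m3 its lowest, median and highest levels were 18.8, 23.2 and 25.9 CPM at day 27 and 25.9, 30.1 and 35.8 at day 7. In air H they were 17.1, 22.4 and 30.4 at day 27 against 28.8, 35 and 40.4 at day 7. The day groups met at 25.9 CPM after 1000 ug/m3, the day 7 value being that of the shallow library 037, and overlapped in air H. After 200 ug/m3 Top2a had 16.6, 22.3 and 25.8 CPM at day 27 and 25.3, 31.1 and 40.1 at day 7. In air L it had 18.9, 26.3 and 28.2 at day 27 and 32.6, 36.9 and 43.4 at day 7. Air L did not overlap between the days, and after 200 ug/m3 the groups overlapped by 1 value at each end. The log2 fold changes were -0.50 (1000 ug/m3, adjusted p = 0.03 in edgeR), -0.59 (air H, adjusted p = 0.00141), -0.51 (200 ug/m3, adjusted p = 0.0322) and -0.57 (air L, adjusted p = 0.0045). Top2a and Kif20a were the members that passed in all 4 series. Kif20a had 3.99 ± 1.63 CPM (mean ± SD of 6 animals) at day 27 and 6.6 ± 0.862 at day 7 in air L, and 3.32 ± 0.527 at day 27 and 7.04 ± 2.91 at day 7 after 200 ug/m3. Its means were 4.99 ± 1.8 at day 27 and 8.46 ± 1.94 at day 7 in air H. After 1000 ug/m3 they were 4.21 ± 2.29 at day 27 and 12 ± 11.1 at day 7, with 34.6 CPM in the shallow library 037 of day 7 and a count of 0 in 045 of day 27, which allows up to 18.6 CPM.

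**Figure D2:**
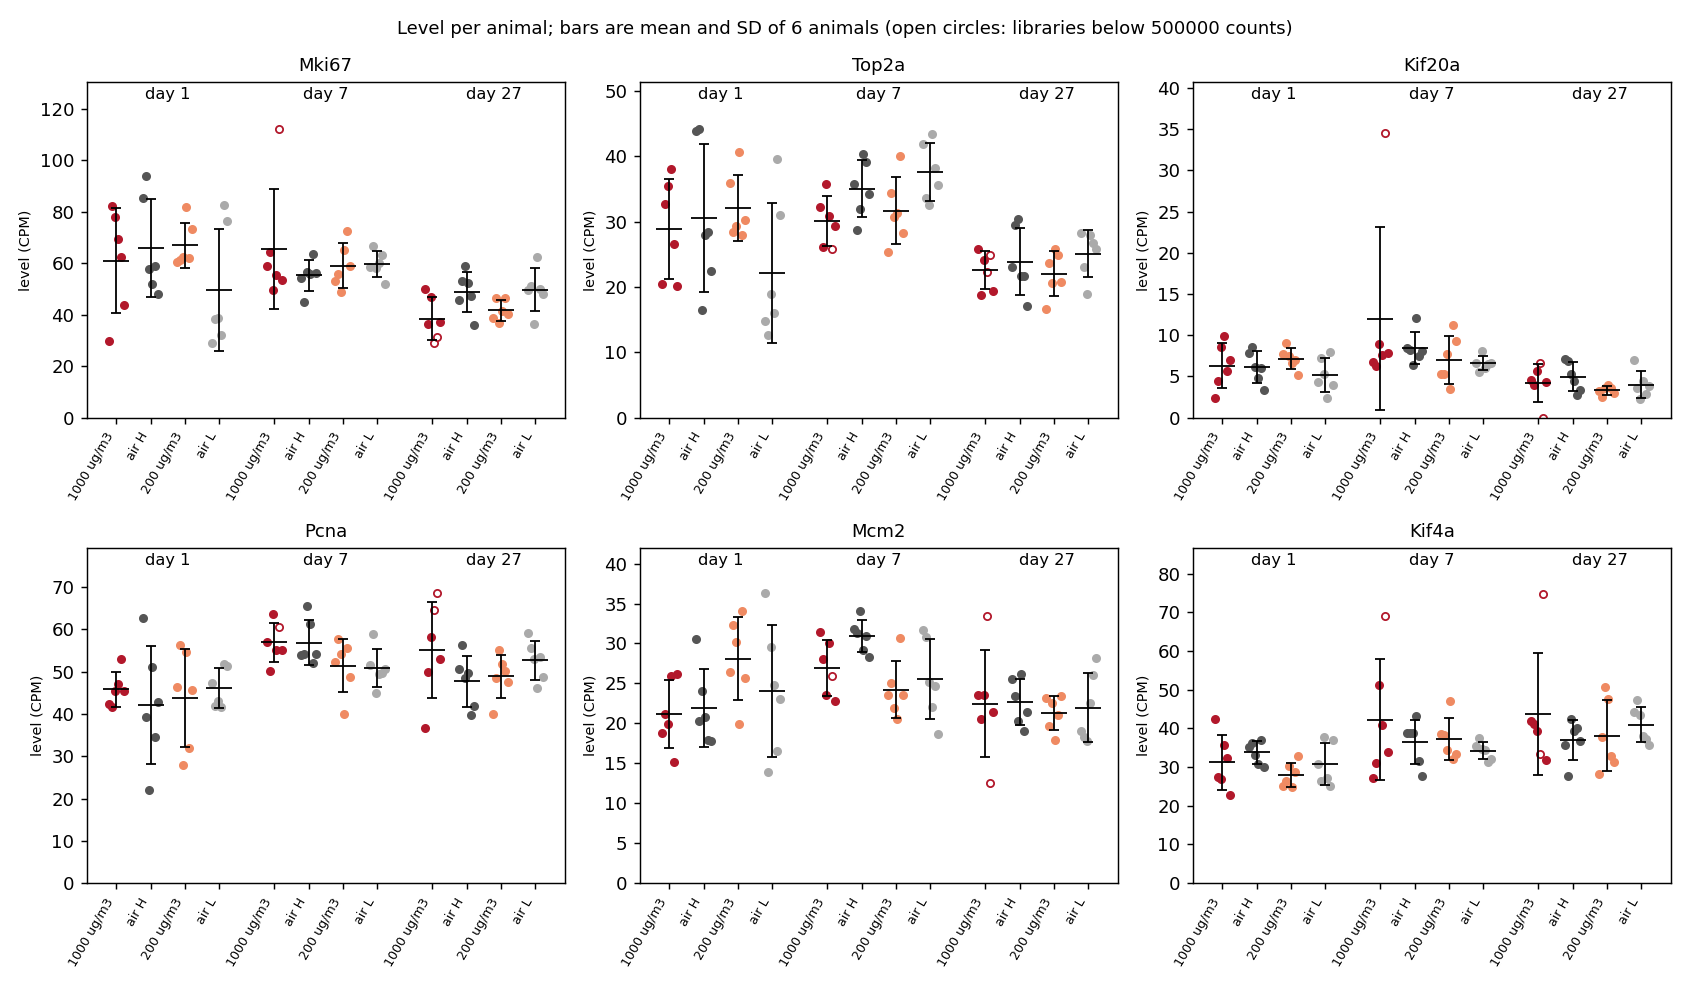
Level in CPM of Mki67, Top2a, Kif20a, Pcna, Mcm2 and Kif4a in every animal at days 1, 7 and 27, with bars for the mean and SD of each group of 6 and open circles for the 3 libraries below 500000 counts. Top2a and Kif20a are lower at day 27 than at day 7 in exposed and air animals alike, and Kif4a is not.

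By series, 7 mitosis genes fell between days 7 and 27 after 1000 ug/m3, 10 in air H, 12 after 200 ug/m3 and 7 in air L, of 26 or 27 tested, and 0 rose. In the same series 8.06%, 15.5%, 3.31% and 10.3% of all genes fell. Mitosis medians were -0.47 after 1000 ug/m3, -0.37 in air H, -0.59 after 200 ug/m3 and -0.47 in air L, against -0.03, -0.05, 0.00 and 0.00 over all genes. Of the 26 mitosis genes tested in all 4 series, 22 had negative values in each of them, as had 6 of the 10 replication genes. The share of all genes with negative values in each series was not computed. Of replication genes 5 fell in air H (Ccne2, Mcm2, Mcm4, Mcm3 and Pcna, -0.71 to -0.29) and 0 in the other 3 series. Whether the fall differed between exposed and air animals was among the changes of effect tested above, with 0 members past the threshold. The mitosis median of that difference (exposed minus air) was -0.05 for 1000 ug/m3 and -0.16 for 200 ug/m3. The largest falls by series were those of Nusap1 (-0.98) and Ccnb1 (-0.95) after 1000 ug/m3, and Aurkb (-1.22) in air H. They were those of Ccnb2 (-1.17) and Kif20a (-1.09) after 200 ug/m3, and Melk (-0.94) and Cdca8 (-0.91) in air L. These counts rest on single libraries and on depth. After 200 ug/m3 the 12 calls became 3 without animal 077 of day 7, 7 without 078 of day 7 or 092 of day 27, and 4 without 091 or 094 of day 27. After 1000 ug/m3 the 7 calls became 2 to 4 without any of the 6 animals of day 7 (013, 014, 015, 016, 037, 038) or without 021, 022 or 046 of day 27. In air H the 15 calls became 8 without 010 of day 7 or 042 of day 27 and 9 without 012 of day 7, and in air L the 7 calls became 4 without 084 of day 27. The call of Aurkb in air H was lost without 010 or 033 of day 7 or 042 of day 27, and its value reached -0.76. No member called in a series changed sign in these fits. At 1000000 counts per library, 0 members were called after 1000 ug/m3, 1 in air H, 0 after 200 ug/m3 and 1 in air L, with 20 tested.

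**Figure D3:**
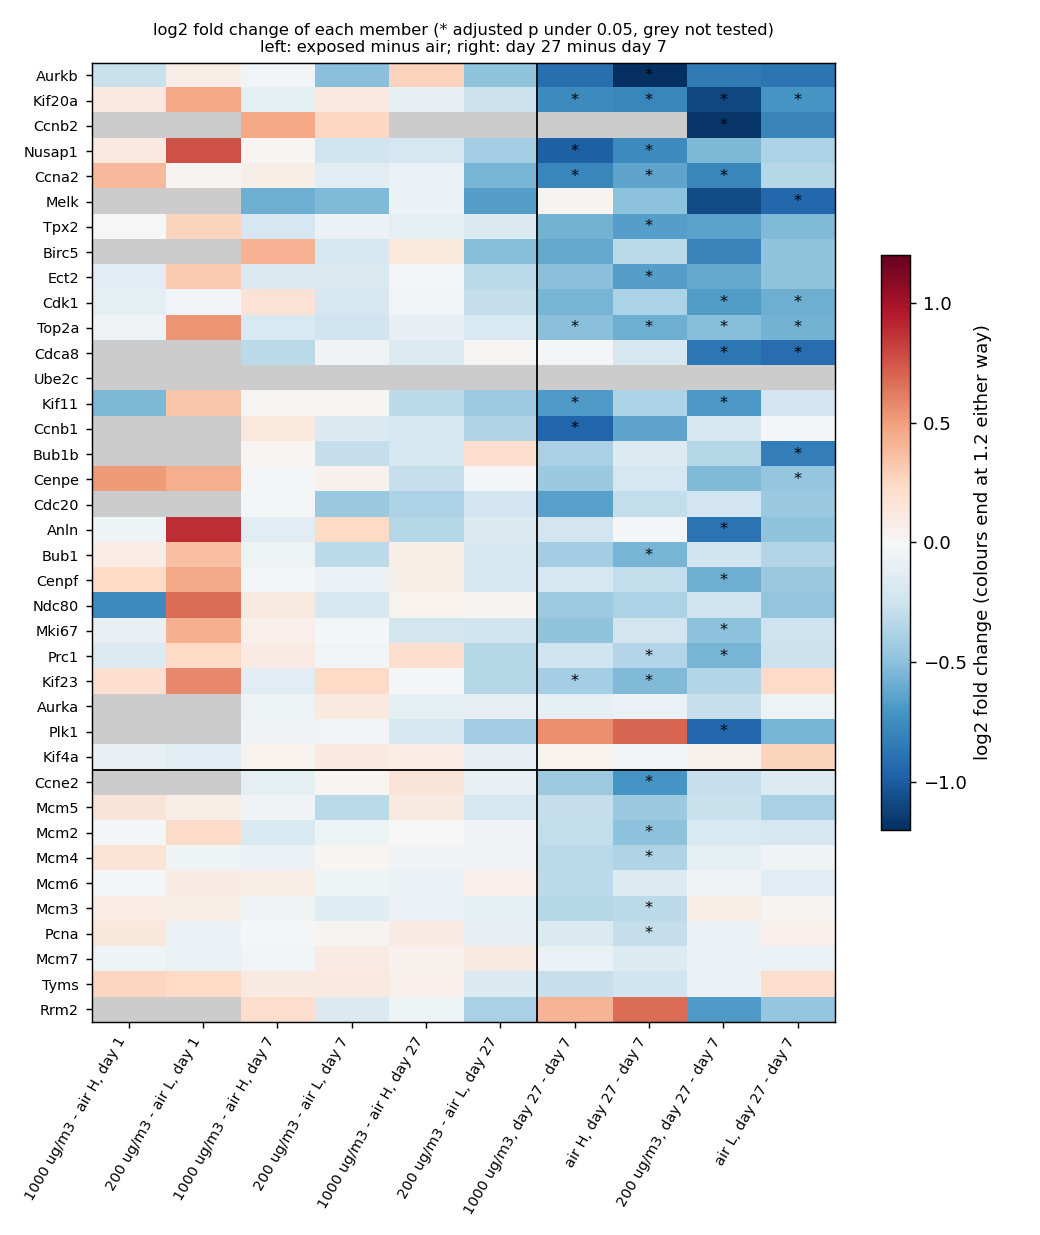
Log2 fold change of each gene (rows, mitosis above and replication below) in the 6 comparisons of exposed with air groups (left) and in the 4 comparisons of day 27 with day 7 (right), with a star where the adjusted p was under 0.05 and grey where the gene was not tested. Stars stand on the right side only, 36 on mitosis and 5 on replication genes.

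The mitosis genes that did not pass were Kif4a, a motor that binds chromosome arms (0.09, SE 0.06, adjusted p = 0.315 in edgeR), Aurka, the kinase of the spindle poles (-0.13, SE 0.10, adjusted p = 0.398), and Plk1, a kinase of entry into and exit from mitosis (-0.05, SE 0.15, adjusted p = 0.859). Kif4a had 43.7 ± 15.8 CPM at day 27 and 42.2 ± 15.7 at day 7 after 1000 ug/m3, and 37 ± 5.22 against 36.5 ± 5.68 in air H. Without the shallow libraries its levels after 1000 ug/m3 were 38.5 ± 4.69 at day 27 and 36.9 ± 9.54 at day 7. After 200 ug/m3 it had 38 ± 9.17 at day 27 and 37.3 ± 5.45 at day 7, and in air L 41 ± 4.59 against 34.2 ± 2.26. Its day groups overlapped in all 4 series. Plk1 had values of opposite sign in the 2 sets of animals. In the H set it had 0.56 (SE 0.36) after 1000 ug/m3 and 0.70 (SE 0.31) in air, and in the L set -0.94 (SE 0.26) after 200 ug/m3 and -0.56 (SE 0.25) in air. Of these 4 values the one after 200 ug/m3 passed (adjusted p = 0.0261 in edgeR), and the difference between the sets was not tested. The promoters of Kif4a and Plk1 held a CHR spelling and a CCAAT box, and that of Aurka held neither. Of the mitosis genes that fell, 15 of 21 with a promoter entry held a CHR spelling and 16 of 21 a CCAAT box.

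Overlaps with other genes touch some of these values. In the RefSeq gene annotation of GRCr8, 15 of the 38 genes overlap another gene, and the setting for strand in the counting is not given in the sources used here, so their counts could include reads of a neighbour. The 3 mitosis genes that did not pass are among them, Aurka with Fam210b, Plk1 with Ern2 and Kif4a with Pdzd11, as are 7 that fell, for instance Kif20a with Cdc23 and Nusap1 with Ndufaf1. Whether neighbours contributed was not tested.

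Of the replication genes, Mcm2 fell between days 7 and 27 (-0.28, SE 0.07, adjusted p = 0.000871 in edgeR), as did Mcm5 (-0.34, SE 0.09, adjusted p = 0.00368), Mcm4 (-0.20, SE 0.06, adjusted p = 0.0104) and Ccne2 (-0.39, SE 0.14, adjusted p = 0.0309). Mcm6 had -0.15 (SE 0.07), Mcm3 -0.13 (SE 0.07), Pcna -0.11 (SE 0.06), Mcm7 and Tyms -0.09 each (SE 0.05 and 0.06) and Rrm2 -0.01 (SE 0.17). All 10 values were negative. Mcm2 had 22.5 ± 6.74 CPM (mean ± SD of 6 animals) at day 27 and 27 ± 3.49 at day 7 after 1000 ug/m3, and 22.6 ± 2.9 against 30.9 ± 2.03 in air H. After 200 ug/m3 it had 21.3 ± 2.17 at day 27 and 24.2 ± 3.55 at day 7, and in air L 22 ± 4.36 against 25.5 ± 5.02. In air H all day 27 animals (19 to 26.2 CPM) lay below all day 7 animals (28.3 to 34.1), and in the other series the days overlapped. Pcna had 55.1 ± 11.4 CPM at day 27 and 56.9 ± 4.69 at day 7 after 1000 ug/m3, and 47.7 ± 6.03 against 56.8 ± 5.35 in air H. Without the shallow libraries its levels after 1000 ug/m3 were 49.4 ± 9.18 at day 27 and 56.2 ± 4.86 at day 7. After 200 ug/m3 it had 48.9 ± 5.1 against 51.5 ± 6.35, and in air L 52.7 ± 4.67 against 50.9 ± 4.58. Pcna passed in air H (-0.29, adjusted p = 0.0442 in edgeR), while the value in air L was positive (0.06, SE 0.10). Mcm6 had 19.6 ± 4.88 CPM at day 27 and 17.7 ± 8.85 at day 7 after 1000 ug/m3, and 18 ± 3.39 against 19.7 ± 2.15 in air H. The day 7 mean after 1000 ug/m3 includes the count of 0 of library 037, and without the shallow libraries Mcm6 was lower at day 27 (15.6 to 17 CPM in 4 animals) than at day 7 (18.6 to 23.7 CPM in 5 animals). Its levels were 19 ± 2.24 at day 27 and 19.6 ± 3.37 at day 7 after 200 ug/m3, and 18.4 ± 1.68 against 20.4 ± 4.06 in air L. It passed in 0 of these 4 series.

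The value of Rrm2, the regulated subunit of ribonucleotide reductase, averaged opposite signs, like that of Plk1, and passed in 0 of the 4 series. It had 0.41 (SE 0.33) after 1000 ug/m3 and 0.67 (SE 0.30) in air H, and -0.68 (SE 0.32) after 200 ug/m3 and -0.46 (SE 0.31) in air L. Between the sets at day 7, air H stood below air L in Rrm2 (-0.88, SE 0.28, adjusted p = 0.0209 in edgeR) and Plk1 (-0.97, SE 0.28, adjusted p = 0.01) and above it in Kif23 (0.41, SE 0.09, adjusted p = 0.000832). At that day 10.3% of all genes were higher and 15.2% lower in air H, 25.5% together, beside 3 of 37 members. Levels of Plk1 were 0.618 to 3.2 CPM in air H and 2.89 to 4.53 in air L, and those of Rrm2 1.24 to 3.12 and 2.06 to 6.91 CPM. Between the exposed groups of day 7, 1000 against 200 ug/m3, Plk1 (-0.98, SE 0.29) and Cdca8 (-0.63, SE 0.24) were lower, where 11.7% of all genes were higher and 16.2% lower. At days 1 and 27, 0 members passed between the sets, in air or exposed lungs. Between the air sets of day 1, 0.829% of all genes were higher and 0.853% lower in air H. At day 27 the shares were 8.92% higher and 5.11% lower. Between the exposed sets 0% of all genes passed at either day. At an unadjusted p under 0.05 there were 1 of 26 and 3 of 36 members between the air sets of days 1 and 27. Of all genes, 2440 of 12304 and 4170 of 14761 lay under it there. Between the exposed sets of these days there were 2 and 2 members, beside 1536 of 12304 and 1086 of 14761 genes.

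Summed over each class, the levels gave 1 value per animal. The mitosis sum of the 24 animals of day 1 ran from 225 through a median of 336 to 450 CPM, that of day 7 from 318 through 345 to 458, and that of day 27 from 214 through 270 to 317. Every day 27 animal, exposed or air, therefore stood below every day 7 animal, narrowly for the nearest, and day 1 animals spanned both ranges. By series, the lowest, median and highest mitosis sums at day 27 against day 7 were 234, 275 and 312 against 325, 348 and 458 CPM after 1000 ug/m3, and 229, 275 and 317 against 330, 343 and 381 in air H. They were 214, 248 and 265 against 318, 329 and 405 after 200 ug/m3, and 232, 298 and 309 against 342, 360 and 375 in air L. At day 27 exposed and air animals overlapped at both concentrations. For 200 ug/m3 this overlap came from animal 084 of air L alone, at 232 CPM. The other air L animals had 284 to 309 CPM, against 214 to 265 after 200 ug/m3. Differences of the sums were not tested. The replication sum overlapped between the days, with 173 (library 037), 237 and 259 CPM (lowest, median, highest of 24) at day 7 and 180, 212 and 255 at day 27, after 146, 215 and 278 at day 1. The ratio of the mitosis to the replication sum had medians of 1.55 at day 1, 1.48 at day 7 and 1.25 at day 27. The animal with the highest mitosis sum of its group also had the highest replication sum in 2 of 12 groups, and the animal with the lowest had the lowest in 4 of 12.

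**Figure D4:**
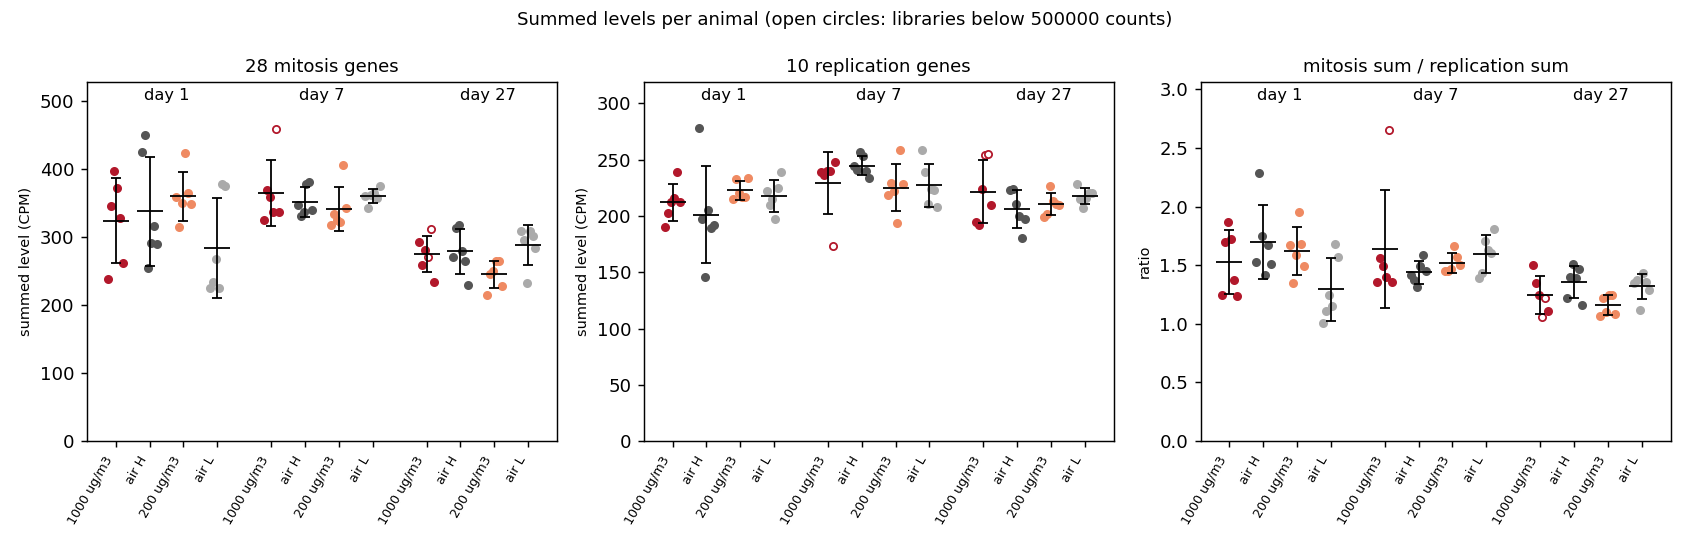
Summed level in CPM of the 28 mitosis genes (left) and the 10 replication genes (middle) and the ratio of the 2 sums (right) in every animal, with bars for the mean and SD of each group of 6 and open circles for the 3 libraries below 500000 counts. The mitosis sums of day 27 lie between 214 and 317 CPM, below all sums of day 7, while the replication sums of the 2 days overlap.

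Changes from day 1 were less uniform, and they run along with depth. Between days 1 and 7, averaged over the 4 series, 9 members rose and 1 fell, where 25.2% of all genes rose and 24.3% fell. The risers were Mcm6 (0.33, SE 0.08, adjusted p = 0.000439 in edgeR), Pcna (0.28, SE 0.06), Tyms (0.25, SE 0.08) and Mcm2 (0.19, SE 0.08) of replication and Cdca8 (0.49, SE 0.16), Aurka (0.42, SE 0.13), Top2a (0.26, SE 0.09), Kif4a (0.23, SE 0.07) and Kif23 (0.19, SE 0.07) of mitosis, and Plk1 fell (-0.56, SE 0.17). With libraries thinned to 1000000 counts, 3 members rose (Mcm6, Pcna and Kif4a) and 0 fell. By series, 2 members rose after 1000 ug/m3 (Mcm2 and Mcm6), and 6 rose and Plk1 fell in air H, where 38.6% of all genes passed in either direction and 5 of the risers were replication genes. After 200 ug/m3 Kif4a rose (0.40) and Nusap1 fell (-0.72), and in air L Top2a (0.75) and Bub1 (0.51) rose. The 2 calls after 1000 ug/m3 became 1 with the animal number series as a term, 0 in DESeq2 and with RLE factors, 0 without animal 006 of day 1 or 013 or 014 of day 7, and 1 without 007, 008 or 029 of day 1 or 015 or 038 of day 7. Without 005 of day 1 neither Mcm2 nor Mcm6 passed. Leaving out 1 library at a time, Mcm2 passed in 5 of 12 fits and Mcm6 in 4 of 12. In air H the 7 calls became 4 without 004 of day 1. After 200 ug/m3 the 2 calls became 0 without 061 of day 1 and 1 without 057 or 058 of day 1 or 073, 074 or 076 of day 7. In air L the 2 calls became 1 without 049 or 051 of day 1 or 068 or 069 of day 7, 4 without 065 of day 7 and 6 without 053 or 054 of day 1. Of all genes 20.1% rose and 19.2% fell after 1000 ug/m3, and 20.4% rose and 18.1% fell in air H. In the L set 5.3% rose and 6.48% fell after 200 ug/m3, and 6.06% rose and 7.56% fell in air L.

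Between days 1 and 27, averaged over the 4 series, 18 mitosis and 3 replication genes fell and 2 mitosis genes and 1 replication gene rose, where 23.3% of all genes fell and 22.5% rose. The largest falls were those of Ube2c, the ubiquitin-conjugating enzyme of anaphase (-0.67, SE 0.22, adjusted p = 0.00958 in edgeR), Nusap1 (-0.66, SE 0.12), Plk1 (-0.61, SE 0.17), Melk (-0.57, SE 0.21) and Ccna2 (-0.56, SE 0.13). Ccne2 (-0.47), Mcm5 (-0.30) and Mcm7 (-0.15) were the replication genes that fell. Kif4a (0.33, SE 0.07, adjusted p = 0.000145 in edgeR), Aurka (0.30, SE 0.13) and Pcna (0.17, SE 0.06) rose. With libraries thinned to 1000000 counts, 9 fell and 2 rose (Pcna and Kif4a). The series were unlike in number. After 200 ug/m3, 17 members fell and 1 rose, where 13.2% of all genes fell and 10.2% rose, with Nusap1 at -1.26, SE 0.20, adjusted p = 5.56e-06 in edgeR. In air L of the same days 2 fell and 2 rose, where 17.9% fell and 14% rose, with Kif23 at 0.49 in air L and -0.42 after 200 ug/m3. Air L of day 1 had the lowest median mitosis sum of that day's groups, 251 CPM, against 354 CPM after 200 ug/m3. Its animals 049, 050, 051 and 052 had 225 to 268 CPM. Animals 053 and 054 had 377 and 374, within the 314 to 423 CPM of the rats after 200 ug/m3. After 1000 ug/m3, 3 fell (Cenpe, Nusap1 and Mki67), where 9.85% fell, and 1 in air H (Ndc80), where 6.39% fell. The 3 calls after 1000 ug/m3 became 1 without 006, 007 or 008 of day 1 or 023, 045 or 046 of day 27. The call in air H was lost without 002 or 004 of day 1, and 2 or 3 members were called without 001 or 003 of day 1 or 017, 018, 019 or 041 of day 27. As given above, the change of the 200 ug/m3 effect between these days passed in 0 members, so the unlike counts are not shown to differ.

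Other genes of the pathway were taken from lists chosen with earlier results known, and their counts stand beside the 9.72% of all genes that fell and the 10.5% that rose between days 7 and 27. Of 23 further mitosis genes tested, 10 fell between days 7 and 27 (median -0.32), among them Nuf2 and Ckap2 (-0.57 each, SE 0.16 and 0.14) and Kif22 (-0.56, SE 0.11). Of 17 polymerase, clamp loader and nucleotide genes 2 fell (median -0.09), the thymidine kinase Tk1 (-0.49, SE 0.09) and the clamp loader subunit Rfc3 (-0.34, SE 0.09). Of 14 origin licensing genes Mcm10 fell (-0.62, SE 0.16) and the origin recognition subunits Orc5 (0.24, SE 0.06) and Orc2 (0.15, SE 0.04) rose. Among 15 E2F, RB and DREAM factors, 3 fell and 2 rose, with E2f8 at -0.67 (SE 0.22), the mitotic activator Foxm1 at -0.31 (SE 0.09) and the pocket protein gene Rb1 at 0.24 (SE 0.05). Among 9 inhibitors of cyclin-dependent kinases and antiproliferative genes, 3 fell and 2 rose, with Cdkn2c at -0.71 (SE 0.10), Cdkn3 at -0.67 (SE 0.16) and Cdkn1b at 0.16 (SE 0.05). Of 9 G1 cyclins, kinases and phosphatases, Cdc25b (-0.28, SE 0.07), Ccnd2 (-0.25, SE 0.04) and Cdk2 (-0.23, SE 0.06) fell. Exposure, averaged over the 6 pairs, moved 0 genes in each of these 6 lists, with medians from -0.04 to 0.02. The counts of 2 of 17 and 1 of 14 that fell are near the share of all genes. Whether the lists differ from one another was not tested.

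Markers of erythroid cells fell beside the mitosis genes between days 7 and 27, but the 2 did not move together in every series from day 1. Of 7 erythroid genes tested, all 7 fell between days 7 and 27 (median -0.77), with the heme enzyme Alas2 at -0.71 (SE 0.10) and the globin Hbb at -0.67 (SE 0.11). Their summed level was 583 ± 86 CPM (mean ± SD of 6 animals) at day 27 and 1120 ± 229 at day 7 after 1000 ug/m3, and 753 ± 423 against 1290 ± 420 in air H. After 200 ug/m3 it ran from 446 to 692 CPM at day 27 and from 502 to 931 at day 7, and its mean in air L was 576 ± 74.5 against 867 ± 144. At day 1 it was 985 ± 159 CPM after 1000 ug/m3, 1010 ± 169 in air H, 1070 ± 163 after 200 ug/m3 and 1550 ± 679 in air L. From day 1 to day 7 it thus fell in air L, while the mitosis sum there rose from 284 ± 72.9 to 360 ± 10.8 CPM. In air L of day 1 it was 1390 to 2490 CPM in animals 049, 050, 051 and 052, and 827 and 843 in 053 and 054. No erythroid marker was at 0 in a group, and their part in the fall of the mitosis genes was not tested. Of 7 thymocyte markers 3 were tested and 0 passed, with Rag2 and Ptcra near 0 (means of 0.0512 and 0.0909 CPM), and their sum ran from 11.1 to 74.8 CPM at day 27 and from 22.4 to 54.7 at day 7. Beside the 10.5% of all genes that rose and 9.72% that fell, the counts in the lists that follow are of 1 to 3 genes in short lists, and nothing is read from them. Of 7 B cell markers tested, 2 rose and 0 fell. Of 6 type II pneumocyte markers 1 fell (median -0.08), and 3 of 5 endothelial markers rose and 1 fell (median 0.15). Of the other lists, 1 of 7 T cell markers rose, and 1 each of 3 germinal centre, 2 plasma cell and 4 alveolar macrophage markers fell. The plasma cell sum, most of it Sdc1, was also lower at day 27 than at day 7 in each series. It was 157 ± 25 against 230 ± 33.4 CPM after 1000 ug/m3 and 167 ± 9.19 against 238 ± 14.1 in air H. After 200 ug/m3 it was 150 ± 10 against 173 ± 23.6, and in air L 151 ± 12.2 against 211 ± 16. These sums were not tested. In the type I pneumocyte and club cell lists 1 rose and 1 fell, and in the ciliated cell and neutrophil lists 0 passed. Averaged exposure moved 0 markers of any of the 13 cell types.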

How the data were processed

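RNA of 72 rat lungs was sequenced from rRNA-depleted, stranded libraries, per the labels. The deposited values are whole-number counts of reads per gene, with no normalization by the authors. Per the submitters' processing notes, the tools were HTSeq 0.6.1, HISAT2 2.1.0, Trimmomatic 0.35, SAMtools 1.8 and bcl2fastq 2.19, with the build Rnor_6.0. For the annotation release and the strand setting, the sources used here give nothing. Groups came from sample titles and labels, each library being 1 animal.

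The main test was the quasi-likelihood test of edgeR 4.0.16 (R 4.3.3), with TMM scaling (default filter on low counts, robust fit), in fits of 24 libraries per day for exposure and 36 libraries per set for days. Members absent from a count of tested genes had too few counts for the filter. P-values were Benjamini-Hochberg adjusted over all genes tested, and a call is an adjusted p under 0.05. Intervals are 1.96 SE on each side. Comparisons averaged over groups come from a fit of all 72 libraries and were added after the data were seen, as was leaving out single libraries. Levels are CPM, counts scaled to a total of 1000000, with TMM factors over 72 libraries, and are set side by side within a gene, not between genes. Alternatives used DESeq2 1.42.0, limma-voom (limma 3.58.1), other scalings and filters, thinned libraries and libraries left out. The scripts were tested on simulated data. A count of 0 allows up to 3 counts, or 25.9 CPM in animal 037, 6.69 in 024 and 18.6 in 045, for counting error only.

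Members and lists were chosen with earlier results of these data known. Any member may be named. Mki67, Top2a, Ccnb1, Mcm2, Mcm6, Pcna and Rrm2 are given in every group, exposure comparisons name the 2 members of smallest p per class, day comparisons those with the largest fold changes among calls, and other lists up to 3 genes. Promoters came from a RefSeq table of the GRCr8 assembly, which differs from the build of the counts, and were used for sequence and neighbouring genes only.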

Additional observations from a re-analysis of the deposited data

Results flagged for a closer look

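Of 120 checks of groups of 6 animals, 7 values stood apart from the other animals of their group by Dixon's criterion, which chance alone meets in about 1 in 20 groups. Of these, 5 belong to animal 037, the day 7 library after 1000 ug/m3 with 105453 counts. It had Mki67 at 112 CPM, Mcm6 at 0 CPM (which allows up to 25.9 CPM), a replication sum of 173 CPM, a mitosis sum of 458 CPM and a ratio of mitosis to replication sum of 2.65. In the 5 other animals of that group the mitosis sum was lower and the replication sum higher. Animal 077, day 7 after 200 ug/m3, had a mitosis sum of 405 CPM, the highest of its group. Animal 084, day 27 in air L, had a mitosis sum of 232 CPM, the lowest of its group. Differences of an exposure effect between concentrations or days gave 0 calls in 318 tests.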

How the results depend on the processing

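Comparisons of exposed with air lungs, differences of the exposure effect between concentrations and changes of it between days gave 0 calls under every alternative run. For 1000 against 200 ug/m3 at day 7 the 2 calls became 1 with no filter and in DESeq2. No paired analysis was possible because animal numbers differ between all groups. Among day comparisons, thinning to 1000000 counts moved the most counts of members called: averaged over series, 10 became 3 (day 7 against 1), 29 became 11 (day 27 against 7) and 24 became 11 (day 27 against 1). By series and in the same order of comparisons, counts became 0, 0 and 1 after 1000 ug/m3 (from 2, 7 and 3), 3, 1 and 0 in air H (from 7, 15 and 1), 0, 0 and 4 after 200 ug/m3 (from 2, 12 and 18) and 1, 1 and 2 in air L (from 2, 7 and 4). Mcm7 in air L, day 27 against 1, turned to 0.05 from -0.31. Thinning removes counts and tests fewer members. The share of all genes called was not computed for these alternatives, so the loss of member calls cannot be set beside that of other genes. With no filter, counts were 1, 4 and 1 after 1000 ug/m3, 2 in air H (day 27 against 1) and 5 after 200 ug/m3 (day 27 against 7). DESeq2 gave 0 and 3 after 1000 ug/m3 and 3 and 9 in air H (day 7 against 1, day 27 against 7), and 1 in air L (day 7 against 1). RLE factors gave 0 and the animal number series as a term 1 after 1000 ug/m3 (day 7 against 1), and leaving out the shallow libraries 2 in air H (day 27 against 1). The causes were not tested. Leaving out 1 library gave, for day 7 against 1, day 27 against 7 and day 27 against 1, 0 to 3, 2 to 6 and 1 to 3 calls after 1000 ug/m3, 4 to 9, 8 to 12 and 0 to 3 in air H, 0 to 3, 3 to 13 and 13 to 18 after 200 ug/m3, and 1 to 6, 4 to 9 and 3 to 5 in air L. Summed levels moved by less than 1 SD under other scalings in 48 of 48 values. Depth limits day 1, where 26 members could be tested, and members with few counts.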
